A study of Mus musculus with 104 samples.

Results

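The 90 genes described here encode nuclear subunits and assembly factors of the mitochondrial respiratory chain and of ATP synthase. They are the rows whose gene symbol begins with Nduf followed by a, b, c, s or v, with Uqcr, with Cox4 to Cox8, or with Atp5, and they make up 90 of the 24958 genes read. By their symbols, 7 are core subunits of complex I, 32 are its accessory subunits, 8 are its assembly factors, 8 belong to complex III, 18 to complex IV and 17 to ATP synthase. Ndufa4 and its paralog Ndufa4l2 are counted here with complex I by name, although Ndufa4 is now known as a subunit of complex IV. Complex II, cytochrome c and most assembly factors fall outside the symbols and are given as separate lists. The 13 mitochondrially encoded subunits were not analysed here.

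The respiratory chain passes electrons from NADH and succinate to oxygen through complexes I to IV in the inner mitochondrial membrane and pumps protons, and ATP synthase uses the proton gradient to make ATP. Most subunits are encoded in the nucleus and a few in mitochondrial DNA, so each complex is built from both. Several nuclear subunits exist as alternative copies that replace one another by tissue or condition. Cox6a2, Cox7a1 and Cox8b are the heart and skeletal muscle copies, Cox6b2, Cox7b2 and Cox8c are best known from testis, and Cox4i2 and Ndufa4l2 are known as hypoxia-responsive copies. In the early embryo and in naive pluripotent stem cells respiration is active, and cells of the primed state rely more on glycolysis.

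Bulk RNA-seq of mouse cells gave 104 libraries in 25 groups. The TC1-GFP line, labelled as mouse embryonic stem cells of wild-type genotype, was kept in S/L medium (mPSC, n = 3) or in 2MYCP medium, the culture of the totipotent blastomere-like cells that the study calls mTBLCs, at passages 1, 2 and 4 (n = 3) and at passages 6, 8, 14 and 19 (established, n = 4). Courses of 1 library per time ran for 0 to 92 h in S/L medium (n = 20), 0 to 96 h in SFH medium (n = 23) and 0 to 96 h in NTF medium (n = 7). The labels do not expand the names of the media or name the culture at 0 h, and the titles write the S/L and SFH times with a d where the time label gives hours. Embryoid bodies in serum medium came from TC1 cells (n = 4) and mTBLCs (n = 4) at days 3, 8, 10 and 12. Further libraries of the same line, described by their levels or within 1 fit, were 2MYCP cells on gelatin (n = 2), cells in 2MYP medium (n = 2), a Ctnnb1 knockout in 2MYCP medium (n = 1) and 2MYCP cells given ICG001 (n = 1), blastoids in TNKM medium (n = 2), and the TELC and PreLC lines in SFH medium (n = 3 each). Libraries titled ZHBTc4 carry the line label TC1-GFP, and 2 of them came from 2MYC medium with doxycycline. The E3.5 blastocyst of ICR embryos is 1 library. Nothing in the labels ties replicates to independent cultures, and the p-values therefore measure only the spread between these libraries, which may be technical.

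Libraries held 1.04 M to 57.0 M counts, with a median of 22.8 M. The members are short, with a median summed exon length of 1525.5 bp against 4607 bp for all genes at 5 CPM (counts-per-million) or more, and libraries differed in how level followed length. The slope of log2(CPM + 1) on log10 length, relative to the mean of all libraries, ran from −2.09 to 0.96, and the members took 0.60% of the counts in the library with the slope of 0.96 (95% Wilson interval 0.599% to 0.606%) and 2.63% in the one with −2.09 (2.62% to 2.64%). Such intervals cover counting error only. Within the S/L course the slope ran from 0.093 to 0.574 and the members' share from 0.91% to 1.17%, and within the SFH course from 0.057 to 0.493 and from 0.85% to 1.06%. Changes within these courses are therefore the main results. Among the mPSC libraries, 2 had slopes of 0.28 and 0.39 and shares of 1.12% and 1.13%, and the one titled as passage 0 stood apart with −1.75 and 2.28%.

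**Figure D1:**
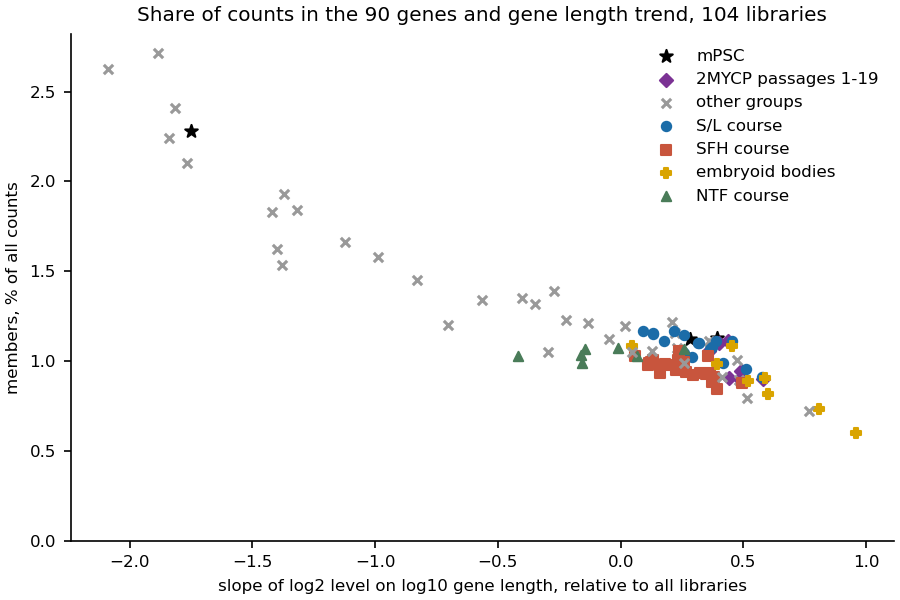
Each point is 1 of the 104 libraries. The horizontal axis is the slope of log2 level on log10 gene length relative to the mean of all libraries, and the vertical axis is the share of all counts in the 90 genes, in percent; the mPSC library at −1.75 and 2.28% lies apart from the other 2, and the course libraries lie close together.

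Promoters are shown for Cox6b1 and Cox6b2 and for Atp5g1 and Atp5g2, whose changes, given below, differ in direction or call within each pair. That of Cox6a1, which fell with Cox6b2 in SFH and NTF medium, is shown as well. Each is the 250 bases before the RefSeq gene start in the GRCm38.p6 build, on the minus strand of the chromosome and written 5′ to 3′, with capitals marking matches to 3 motifs searched on both strands: the NRF1 motif GCGCANGCG, the ETS motif CCGGAAG and the YY1 motif AAGATGGCG. These are motifs of factors known to drive nuclear respiratory genes. A promoter was held for 71 of the 90 members.
Cox6b2, chr7:4753095-4753344: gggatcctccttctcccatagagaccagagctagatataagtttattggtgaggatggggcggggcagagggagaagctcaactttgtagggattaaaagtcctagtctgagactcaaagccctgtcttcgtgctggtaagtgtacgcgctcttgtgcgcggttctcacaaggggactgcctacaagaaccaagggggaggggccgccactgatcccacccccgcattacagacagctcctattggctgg
Cox6b1, chr7:30626115-30626364: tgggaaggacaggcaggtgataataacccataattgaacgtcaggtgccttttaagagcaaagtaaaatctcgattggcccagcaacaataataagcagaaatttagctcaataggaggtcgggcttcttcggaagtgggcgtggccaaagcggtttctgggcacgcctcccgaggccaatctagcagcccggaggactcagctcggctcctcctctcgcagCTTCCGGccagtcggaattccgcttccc
Cox6a1, chr5:115348959-115349208: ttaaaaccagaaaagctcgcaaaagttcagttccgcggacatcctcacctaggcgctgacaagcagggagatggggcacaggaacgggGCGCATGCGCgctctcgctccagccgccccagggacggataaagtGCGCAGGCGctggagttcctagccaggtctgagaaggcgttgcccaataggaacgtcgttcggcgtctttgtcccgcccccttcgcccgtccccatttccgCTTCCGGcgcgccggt
Atp5g1, chr11:96075632-96075881: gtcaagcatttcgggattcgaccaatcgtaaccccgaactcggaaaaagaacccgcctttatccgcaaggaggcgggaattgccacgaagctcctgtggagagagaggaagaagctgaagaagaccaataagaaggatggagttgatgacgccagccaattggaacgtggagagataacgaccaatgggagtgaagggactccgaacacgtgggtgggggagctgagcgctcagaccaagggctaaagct
Atp5g2, chr15:102671048-102671297: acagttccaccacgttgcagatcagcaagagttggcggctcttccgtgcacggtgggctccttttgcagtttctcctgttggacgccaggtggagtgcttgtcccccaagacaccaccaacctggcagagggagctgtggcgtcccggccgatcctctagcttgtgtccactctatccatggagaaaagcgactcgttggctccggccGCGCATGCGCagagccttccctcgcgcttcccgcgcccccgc
The Cox6b2 and Atp5g1 windows hold none of the 3 motifs. Neither does the window of the third copy, Atp5g3, which is not shown. Atp5g3 did not pass over the full S/L or SFH course and rose in NTF medium. The Cox6b1 window holds the ETS motif on the opposite strand 28 to 22 bases before the start, and the Atp5g2 window holds overlapping NRF1 matches on both strands 42 to 33 bases before it. The Cox6a1 window holds 3 NRF1 matches, a pair of them overlapping, and 1 ETS match. Over all members, 13 of 71 promoters (18.3%) held the NRF1 motif, against 5.86% of 27025 genes with a promoter, and 13 (18.3%) held the ETS motif, against 7.83%. The YY1 motif was in 1 member promoter (1.41%), that of Atp5j, against 0.710% of all genes. GC content was 54.8% in the Cox6b2 window, with 8 CG pairs, 62.8% in the Cox6a1 window, with 26, and 52.4% with 6 CG pairs in the median window of the table. A match is a description of the letters and not a tested site.

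Most members were well expressed. Over the 104 libraries, 36 had a median of at least 100 CPM, 47 one of 5 to 100 CPM, 1 (Cox4i2) one of 1 to 5 CPM, and 6 one under 1 CPM. The highest medians were those of the ATP synthase genes Atp5b, at 1868 CPM (554 to 2786), and Atp5a1, at 1150 CPM (452 to 1528). Cox4i1, the common copy of complex IV subunit 4, followed at 357 CPM, the ATP synthase stalk subunits Atp5f1 and Atp5c1 at 327 and 282 CPM, and the complex III core protein Uqcrc1 at 267 CPM. The 6 lowest were alternative copies or gene models: Cox6a2, Cox8b, Cox8c, Cox7b2, Ndufb4c and Ndufs5. Ndufs5 had 0 counts in 103 of 104 libraries, although the complex I accessory subunit it encodes is known in most tissues. Several members have processed pseudogenes in the mouse genome, and how reads shared with these were counted is not given in the sources used here, so single levels of such genes are uncertain.

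In S/L medium more members rose than fell by 48 h, and more fell than rose from 48 to 92 h. The contrasts at 48 h, here and in SFH medium, were chosen after the data were seen. Such a choice favours a rise to that hour and a fall after it. At 48 h, 40 of the 87 members tested rose and 7 fell, against 22.5% of all genes that rose and 23.2% that fell. The median member change was 0.25 on the log2 scale, against −0.02 for all 16846 genes. At 92 h against 0 h, 20 rose and 7 fell, against 21.3% and 19.3% of all genes, and the median was 0.11 against 0.01. From 48 to 92 h, 2 rose and 15 fell, against 14.7% and 12.4% of all genes, and the median was −0.12 against 0.03. Rises called at 48 h were still called at 92 h for 17 of 40 genes. A gene was called at an adjusted p under 0.05 (edgeR quasi-likelihood test of a smooth curve over the hours, Benjamini-Hochberg over all genes). Without the 88 h library 10 members rose by 92 h in place of 20, and with no filter on low counts 13. A straight line in hours in place of the curve turned the balance, with 18 rises and 25 falls against 26.3% and 28.4% of all genes. With each library's length trend removed, 36 rose and 6 fell at 92 h. That correction moved the median of all genes to 0.15 and that of the members to 0.24. Shares of all genes called in that fit, without the 88 h library or with no filter are not given here. Those counts are therefore not set against all genes. Members shorter than their median length rose in 18 of 42 cases at 48 h and longer ones in 22 of 45. The slope on gene length was 0.093 to 0.372 at 0 to 20 h and 0.364 to 0.574 at 72 to 92 h, and the members' share of counts was 1.02% to 1.17% and 0.91% to 1.11%. In order, the share at 68, 72, 76, 80, 88 and 92 h was 0.96%, 1.11%, 0.99%, 1.07%, 1.11% and 0.91%. It went up and down between neighbouring late libraries, and the 92 h library was the lowest of these. The part of this in the fitted fall was not tested. In CPM, which unlike the test carry no TMM factor, 8 of the 90 members lay higher in all late than in all early libraries and 19 lower. How many of all genes were separated in this way is not given here, and these hours were chosen after seeing the data. These counts are therefore not a result about the members.

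**Figure D2:**
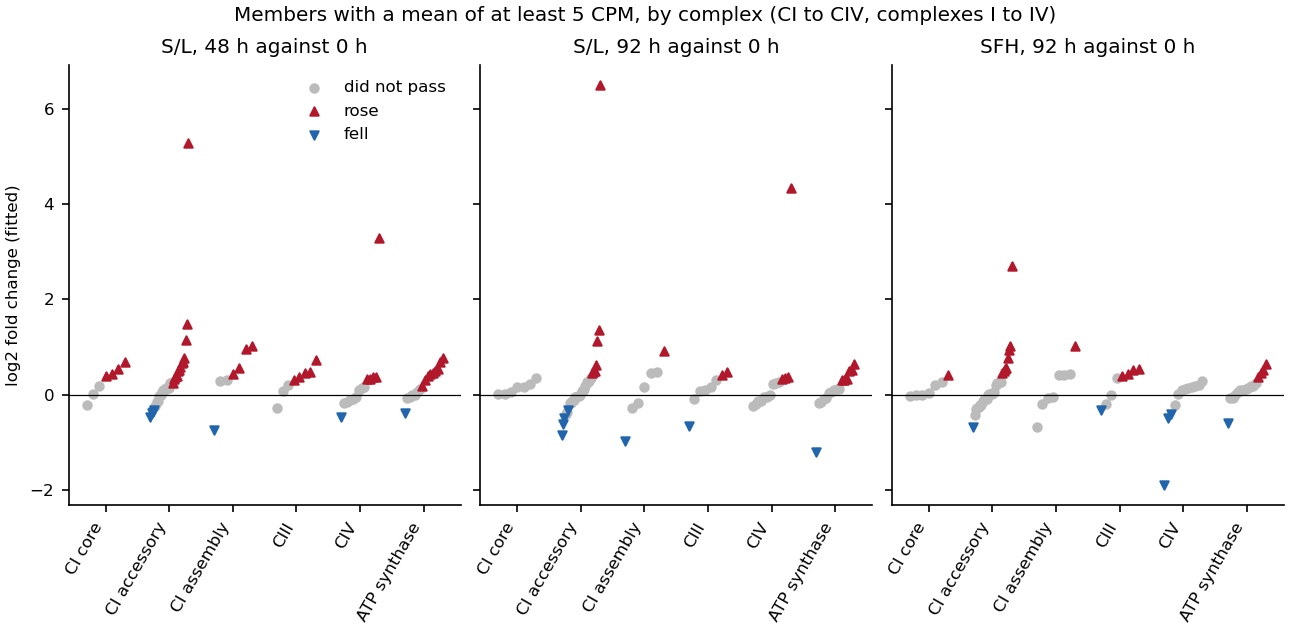
Each point is a member with a mean of at least 5 CPM, placed by complex, and the vertical axis is its fitted log2 fold change. Red triangles rose and blue triangles fell at an adjusted p under 0.05, and grey points did not pass; in the S/L course 4 complex I core subunits rose at 48 h and none was called at 92 h, and Ndufa4l2 and Cox4i2 are the 2 points above 4 at 92 h.

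Among the 7 core subunits of complex I, which carry the flavin and iron-sulfur clusters, 4 rose by 48 h in S/L medium and none was called at 92 h. Ndufs1, the largest of them, rose by 0.68 ± 0.10 on the log2 scale (SE, edgeR adjusted p = 1.64e-05) at 48 h and then fell by 0.53 ± 0.11 to 92 h (adjusted p = 0.00162). Ndufv1, the NADH-binding subunit, rose by 0.44 ± 0.10 (adjusted p = 0.000836) and fell by 0.40 ± 0.11 (adjusted p = 0.00939). The libraries at 0 to 20 h held 148 to 193 CPM of Ndufs1 with a median of 171, and those at 72 to 92 h held 142 to 183 CPM with a median of 165. These ranges overlap, and the highest library was that of 44 h, with 239 CPM. Ndufv2 and Ndufs8 also rose by 48 h, by 0.53 and 0.39.

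Of the 31 complex I accessory subunits tested, 7 rose and 4 fell at 92 h in S/L medium. Ndufb3 held 19.9 CPM at 0 h, 37.9 at 20 h and 50.8 at 48 h, and 40.1 to 49.98 CPM from 72 h on. The early libraries, at 19.9 to 37.9 CPM, all lay below the late ones, and the log2 change at 92 h was 1.35 ± 0.13 (adjusted p = 3.08e-08). Ndufv3, a small subunit beside the NADH-binding site, rose from an early median of 47.1 CPM to a late one of 100.2 CPM, a log2 change of 1.12 ± 0.17 (adjusted p = 1.31e-05). Ndufs4, whose loss causes a Leigh-like disease in mice, rose by 0.62, and Ndufa7, Ndufb5 and Ndufc1 rose by 0.45 to 0.49. In the other direction, Ndufa11 held 63.9 to 73.6 CPM early and 29.1 to 42.1 CPM late, without overlap, and fell by 0.86 ± 0.15 (adjusted p = 0.0001). Ndufb7, Ndufab1, the mitochondrial acyl carrier protein, and Ndufa4 fell by 0.63, 0.48 and 0.32. The call for Ndufa4 was lost with the length trend removed. Assembly factors split in the same way, with Ndufaf7, a methyltransferase of complex I assembly, up by 0.91 ± 0.13 and Ndufaf3 down by 0.98 ± 0.18 (adjusted p = 1.03e-05 and 0.000152).

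Ndufa4l2 changed more than any other member in S/L medium. It held 0.386 to 2.37 CPM through 20 h, 3.82 CPM at 36 h, 25.0 CPM at 40 h, 24.5 CPM at 48 h, 68.2 CPM at 72 h, 80.3 CPM at 88 h and 49.1 CPM at 92 h. All early libraries lay below all late ones, the lowest of which held 44.3 CPM, and the step between 36 and 40 h is, as a ratio, the largest rise between neighbouring libraries. The fitted log2 change over 92 h was 6.50 ± 0.57 (adjusted p = 7.71e-09). Per kilobase of transcript, Ndufa4l2 made up 0.154% to 27.8% of Ndufa4 and Ndufa4l2 together across the course. Ndufa4 itself went from 158 to 186 CPM early to 115 to 141 CPM late.

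Of the 16 subunits counted with complex IV by symbol and tested, 4 rose and none fell. Ndufa4, which fell, is counted here with complex I. Cox4i2 moved with Ndufa4l2. It held 0.48 CPM at 0 h, 2.07 CPM at 20 h, 6.69 CPM at 48 h, 15.04 CPM at 88 h and 9.69 CPM at 92 h, and the late libraries (9.14 to 15.04 CPM) all lay above the early ones. The log2 change was 4.34 ± 0.38 (adjusted p = 7.1e-09). At its highest it was 4.17% of the 2 Cox4 copies per kilobase, since Cox4i1 held 408 to 442 CPM early and 301 to 375 CPM late. Those ranges do not overlap, but the fitted change of Cox4i1, −0.20 ± 0.10, did not pass. Cox7a2l, which joins complexes III and IV, Cox7a2 and Cox7b rose by 0.32 to 0.37, and all 3 calls were lost without the 88 h library. The other 12 did not pass at 92 h, among them Cox6b2, at −0.24 ± 0.19, and Cox5a, Cox6a1 and Cox6b1, at −0.13 to −0.02.

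In complex III, Uqcrc2, a core protein, and Uqcrh, the hinge protein that binds cytochrome c1, rose by 0.42 and 0.48, and Uqcr11 fell by 0.66 ± 0.17 (adjusted p = 0.00403). Without the 88 h library the calls of Uqcrc2 and Uqcrh were lost, and without the 92 h library those of Uqcrh and Uqcr11. Uqcrc1 and the Rieske protein Uqcrfs1 changed by −0.09 ± 0.14 and 0.31 ± 0.13 and did not pass. ATP synthase had 6 rises and 1 fall among 17 subunits. The rises were in Atp5c1 (0.64 ± 0.12), Atp5h, Atp5a1, Atp5g2, Atp5f1 and Atp5k. The fall was in Atp5g1, which with Atp5g2 and Atp5g3 encodes the same mature c subunit of the rotor ring. Atp5g1 held 120 to 148 CPM through 20 h, 98.2 CPM at 48 h and 38.1 CPM at 92 h. No late library (38.1 to 66.3 CPM) reached the early range, and the log2 change was −1.21 ± 0.17 (adjusted p = 8.22e-06). Atp5g2 rose by 0.33 ± 0.12 (adjusted p = 0.0345) and Atp5g3 changed by −0.16 ± 0.12 and did not pass. The call for Atp5g2 was lost in 12 of the alternatives, 11 of which left out a single library.

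**Figure D3:**
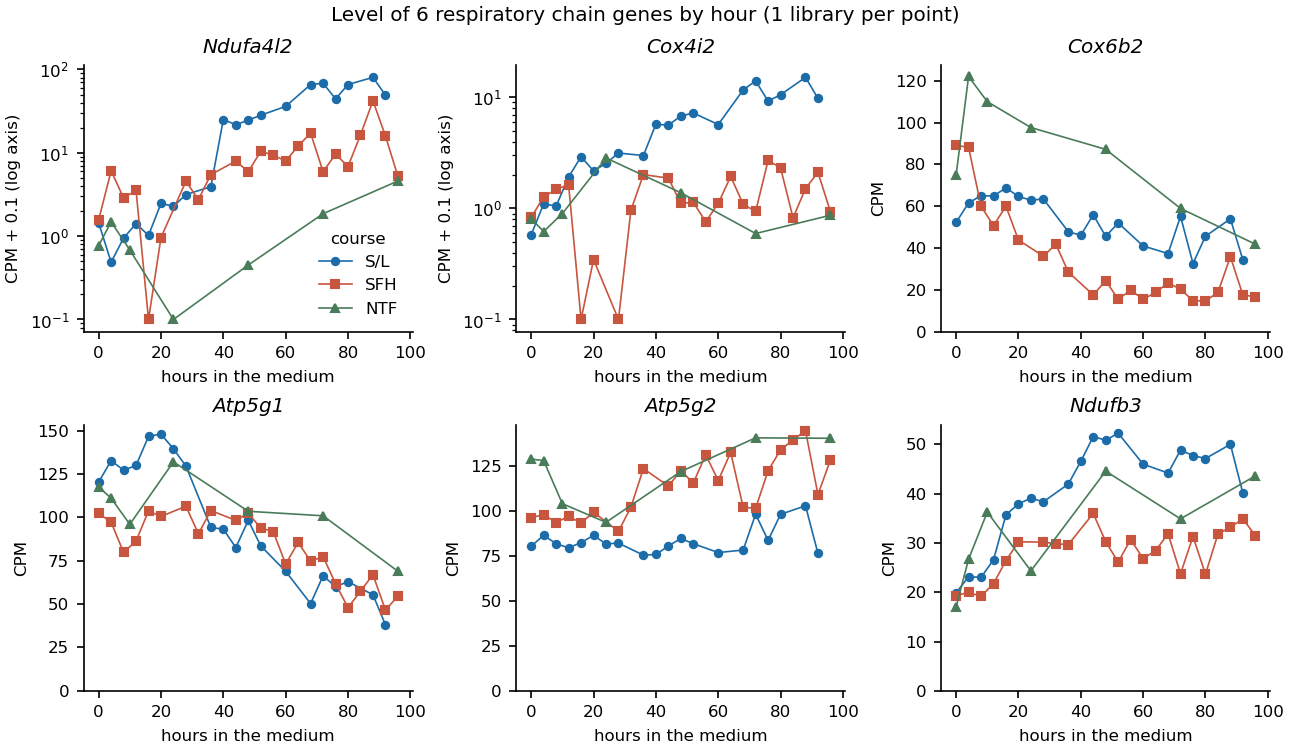
CPM of 6 members by hour in the S/L (circles), SFH (squares) and NTF (triangles) courses, 1 library per point, with a log axis for Ndufa4l2 and Cox4i2 after adding 0.1. Ndufa4l2 stands at 25.0 CPM at 40 h in S/L medium after 3.82 CPM at 36 h, Cox6b2 lies at or below 24.4 CPM in the SFH libraries from 44 h on except the one of 88 h, at 35.9 CPM, and Atp5g1 goes down in both long courses.

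Other genes moved over the same hours. In S/L medium the summed level of the 5 primitive endoderm markers was 89.5 to 226.5 CPM at 0 to 20 h and 408 to 904 CPM at 72 to 92 h, that of the 6 markers of 2-cell-like cells went from 258 to 408 CPM to 67.6 to 149 CPM, and that of the 7 naive pluripotency markers from 5159 to 6085 CPM to 3708 to 4313 CPM. The 7 trophectoderm markers summed to 110 to 213 CPM early and 130 to 293 CPM late. The 7 fibroblast markers, which feeder cells would carry, went from 80.0 to 99.996 CPM down to 14.5 to 31.7 CPM while Ndufa4l2 and Cox4i2 rose. In bulk libraries fewer cells of a type and less RNA per cell cannot be told apart, and the part of a changing cell mixture in the results was not tested.

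In SFH medium 18 members rose and 6 fell by 92 h, against 21.5% and 19.7% of 16343 genes, with a median change of 0.10 against 0.00. At 48 h, 19 rose and 4 fell, against 19.8% and 19.1%, and from 48 to 92 h 8 rose and 12 fell, against 20.2% and 18.5%. At 92 h the share of members that rose, 20.7%, was near that of all genes, and the share that fell, 6.90%, was below it. With a straight line in hours 17 rose and 13 fell. The shares of all genes called in that fit are not given here, so these counts are not set against all genes. Complex III was the class with the largest share called, 4 rises and 1 fall among 8 subunits. Uqcrfs1, Uqcrh, Uqcrc2 and Uqcrq rose by 0.39 to 0.53, and Uqcrc1 fell by 0.32 ± 0.12 (adjusted p = 0.0239), a call lost without the 0 h library, at −0.29, and with the length trend removed, at −0.20. Of the 7 complex I core subunits 3 rose by 48 h, among them Ndufv1 by 0.62 ± 0.11 and Ndufs1 by 0.59 ± 0.11 (adjusted p = 2.68e-05 and 6.11e-05). Both then fell by 92 h, by 0.62 ± 0.09 and 0.55 ± 0.09 (adjusted p = 1.55e-06 and 1.01e-05), as Ndufs8 and Ndufs3 also did.

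Cox6b2 had the largest called fall of a member over 92 h in SFH medium. It held 89.1 CPM at 0 h, 43.8 CPM at 20 h, 24.4 CPM at 48 h, 14.6 CPM at 80 h and 17.5 CPM at 92 h, with 35.9 CPM at 88 h. All libraries from 72 h on, at 14.6 to 35.9 CPM, lay below those up to 20 h, at 43.8 to 89.1 CPM. The log2 change was −1.91 ± 0.25 at 92 h (adjusted p = 3.91e-07) and −1.87 ± 0.22 at 48 h. Cox6b1, the common copy, changed by 0.01 ± 0.13 over 92 h and did not pass, after a fall of 0.36 ± 0.12 by 48 h (adjusted p = 0.0145) and a rise of 0.37 ± 0.10 from 48 to 92 h. Per kilobase Cox6b2 was 39.2% of both copies at its highest in this course and 11.9% at its lowest. Cox5a and Cox6a1 fell by 0.40 ± 0.12 and 0.50 ± 0.18 (adjusted p = 0.00692 and 0.0268). No subunit counted with complex IV by symbol rose over 92 h against 0 h. Without the 0 h library or the 4 h library the Cox6a1 call was lost, at −0.51 and −0.41.

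Atp5g1 and Atp5g2 parted in SFH medium too. Atp5g1 held 79.8 to 104 CPM early and 46.6 to 77.4 CPM late and fell by 0.60 ± 0.14 (adjusted p = 0.00087). Atp5g2 held 93.1 to 99.2 CPM early and 101 to 144 CPM late and rose by 0.64 ± 0.14 (adjusted p = 0.00038). Neither gene's early and late ranges overlapped. Ndufa11 fell by 0.68 ± 0.17 (adjusted p = 0.00224). Among the rises, Ndufb3 gained 1.03 ± 0.16, Ndufaf7 1.03 ± 0.25, Ndufv3 0.94 ± 0.21 and Ndufs4 0.76 ± 0.16 (adjusted p = 5.34e-06 to 0.00158). Ndufa4l2 held 0 to 5.98 CPM early and 5.14 to 41.9 CPM late, overlapping ranges with the 88 h library highest, and rose by 2.70 ± 0.77 (adjusted p = 0.00541). Cox4i2 held 0 to 2.60 CPM in these libraries and did not pass. In SFH medium the summed naive markers went from 5088 to 6399 CPM to 1690 to 2082 CPM, the 4 formative epiblast markers from 86.4 to 383 CPM to 938 to 1699 CPM, the primitive endoderm markers from 54.6 to 103 CPM to 458 to 789 CPM and the trophectoderm markers from 77.7 to 206 CPM to 182 to 708 CPM. The fibroblast markers went from 148 to 514 CPM to 21.3 to 44.1 CPM. Their part in the changes was not tested.

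The changes over time in SFH and S/L medium were compared by the interaction of medium and curve. Over 92 h the change in SFH was lower than that in S/L for 4 members and higher for none, against 6.6% and 5.3% of 17745 genes. With straight lines in hours, 12 members were higher in SFH and 4 lower, against 10.6% and 10.5% of all genes, so the absence of higher members depends on the curve. On the log2 scale, SFH minus S/L was −3.85 ± 1.01 for Ndufa4l2 (adjusted p = 0.00729), −3.72 ± 1.04 for Cox4i2 (adjusted p = 0.0124), −1.61 ± 0.35 for Cox6b2 (adjusted p = 0.00126) and −1.12 ± 0.38 for Ndufaf5, an assembly factor of complex I (adjusted p = 0.0456). The 2 hypoxia-responsive copies thus gained less in SFH than in S/L, and Cox6b2 lost more. The call for Ndufa4l2 was lost without the SFH 4 h library, at −3.00, that for Cox4i2 without the S/L 0 h library, at −3.28, and that for Ndufaf5 in 18 of the alternatives tried. Over 48 h the change was lower in SFH for 8 members and higher for 2, against 5.02% and 4.62% of all genes. To the 4 genes above this added Atp5h, Uqcrh, Ndufb3 and Atp5o on the lower side, at −0.44 to −0.68, and Atp5g1 and Ndufaf8 on the higher side, at 0.63 and 1.26. The 2 courses lie in separate tables, and medium and table cannot be told apart in their levels.

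In NTF medium 15 members rose and 2 fell by 96 h, against 16.7% and 15.3% of 16381 genes, and the median change was −0.01 against 0.00. Among members longer than the median 10 of 45 rose, and among shorter ones 5 of 42. With each library's length trend removed, 22 rose and none fell. That correction also raised the median change of all genes, as given in the last section. The share of all genes called in that fit is not given here. Atp5a1 rose by 1.19 ± 0.28, Atp5c1 by 0.99 ± 0.25, Uqcrc2 by 1.05 ± 0.27, Ndufb3 by 1.13 ± 0.34, Ndufv3 by 1.07 ± 0.24 and the core subunit Ndufs1 by 0.85 ± 0.24 (adjusted p = 0.00596 to 0.0263). Cox6b2 held 74.8 CPM at 0 h, 122 CPM at 4 h, 110 CPM at 10 h, 97.7 CPM at 24 h, 87.2 CPM at 48 h, 58.9 CPM at 72 h and 41.8 CPM at 96 h. It was highest at 4 h and lowest at 96 h, and fell by 0.97 ± 0.26 (adjusted p = 0.0161). Cox6a1 fell by 0.77 ± 0.23 (adjusted p = 0.0264). Both falls were lost with the length trend removed, at −0.66 and −0.41, and without the 72 h or the 96 h library. Ndufa4l2 held 0.668, 1.39, 0.581, 0, 0.3503, 1.76 and 4.48 CPM in order of hour, and rose by 2.90 ± 0.92 (adjusted p = 0.032) on a mean of 1.32 CPM. With 7 libraries these calls are fragile: 7 members rose without the 4 h, the 10 h or the 72 h library, and none without the 96 h library, where the value at 96 h is extrapolated.

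Over the 3 courses 9 members rose in each: Atp5a1, Atp5c1, Atp5f1, Ndufa4l2, Ndufaf7, Ndufb3, Ndufs4, Ndufv3 and Uqcrc2. They are 9 of 20 rises in S/L, 9 of 18 in SFH and 9 of 15 in NTF medium. S/L and SFH shared 13 rises and 2 falls, Atp5g1 and Ndufa11, and SFH and NTF shared the falls of Cox6a1 and Cox6b2. No fall was shared by all 3. The 3 courses have no library in common. How many of all genes were shared between courses is not given here, so these overlaps are a description and not a result about the members. The NTF calls among them are fragile: no rise was called without the 96 h library, and Ndufa4l2 was called there on a mean of 1.32 CPM.

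Neighbouring pathways were counted in the same fits, where 21.3% of all genes rose and 19.3% fell over 92 h in S/L, 21.5% and 19.7% in SFH, and 16.7% and 15.3% over 96 h in NTF medium. Of the 4 subunits of complex II, Sdhc and Sdhd rose by 0.52 and 0.47 by 92 h in S/L medium, and Sdhd, a membrane anchor, rose by 0.88 in SFH and 0.83 in NTF medium. Of 17 genes of the citric acid cycle and pyruvate dehydrogenase, 8 rose and 2 fell in S/L, 5 rose and 2 fell in SFH and 7 rose in NTF medium, with median changes of 0.26, 0.15 and 0.52. Suclg2, the GTP-forming succinate-CoA ligase subunit, was the largest rise in each, at 1.18, 1.06 and 1.32, and Ogdh fell by 0.60 in S/L and 0.33 in SFH medium. Of 15 regulators of mitochondrial biogenesis and mtDNA expression tested, 4 rose and 2 fell in S/L and 5 rose and 2 fell in SFH medium. In NTF medium 2 rose, Tfb1m by 1.64 and Ssbp1 by 0.68, and none fell. Polrmt, the mitochondrial RNA polymerase, fell by 1.33 in S/L and 1.21 in SFH medium. Ssbp1, which binds single-stranded mtDNA, rose by 0.78 in S/L and 0.51 in SFH medium. Assembly factors outside the symbols gave 7 rises and 3 falls of 31 in S/L, 7 rises and 1 fall in SFH and 2 of each in NTF medium, with shares of rises near those of all genes in S/L and SFH. They include Nubpl, which delivers iron-sulfur clusters to complex I, up by 1.21 and 1.05 in S/L and SFH. Cycs and Cyc1 were not called over the full course in any medium. From 48 to 92 h, 14.7% of all genes rose and 12.4% fell in S/L, and 20.2% and 18.5% in SFH. Over these hours the citric acid cycle list had no rise and 7 falls in S/L and no rise and 6 falls in SFH. The assembly factors had 1 and 6 and then 0 and 6, and the biogenesis list 0 and 3 and then 1 and 6. For the assembly factors the share of falls in SFH was near that of all genes.

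Along the 2MYCP passages 1 member, Ndufa4l2, rose and none fell, against 4.03% and 1.64% of 16185 genes. Ndufa4l2 held 2.18, 7.93, 14.2, 42.3, 123, 37.8 and 103 CPM at passages 1, 2, 4, 6, 8, 14 and 19, so that each of the 3 early libraries lay below each of the 4 later ones. The log2 change per doubling of passage was 1.29 ± 0.24 (adjusted p = 0.0263), and the call was lost without passage 1, 2 or 19, at 1.10, 1.28 and 1.45, and with passage as a plain number. With the passage 0 library added the change turned to −0.22. The fibroblast markers summed to 477 to 843 CPM at passages 1 to 4 and 1156 to 1815 CPM at passages 6 to 19, and on gelatin, with 26.9 and 16.1 CPM of these markers, Ndufa4l2 held 9.26 and 1.02 CPM. In the S/L course Ndufa4l2 rose while the same markers fell. Whether feeder cells contribute to the passage trend was not tested. Cox4i2 held 1.19 to 2.31 CPM at passages 1 to 4 and 1.63 to 9.70 CPM later and did not pass.

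**Figure D4:**
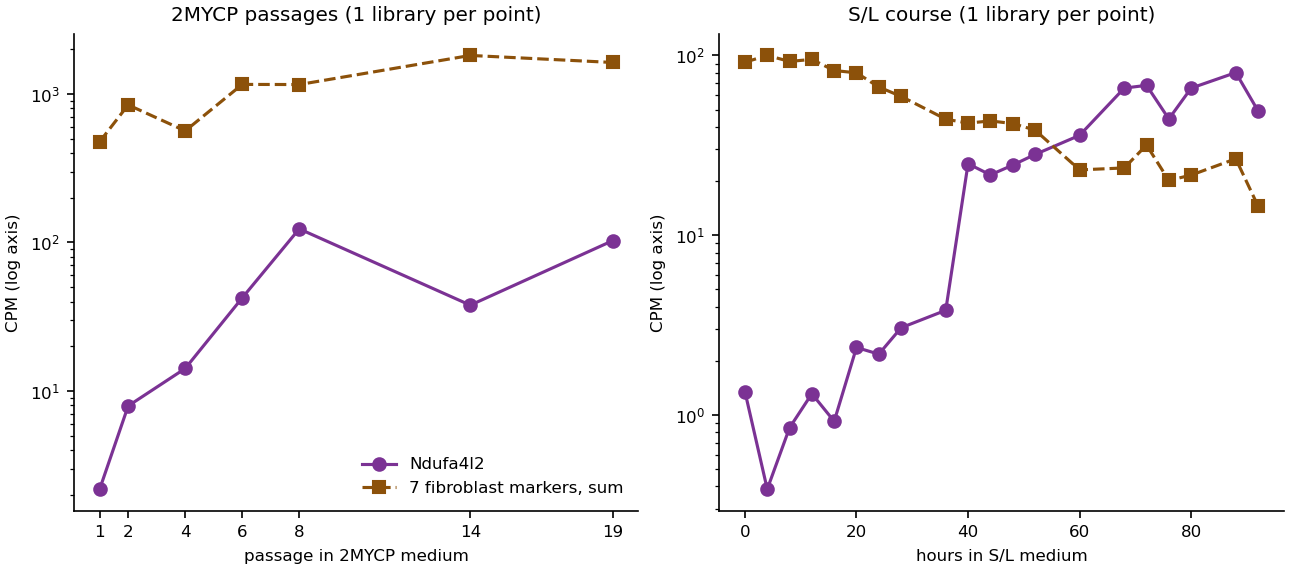
CPM on a log axis of Ndufa4l2 (circles) and of the sum of 7 fibroblast markers (squares), 1 library per point, by 2MYCP passage (left) and by hour in S/L medium (right). Both are higher at passages 6 to 19 than at passages 1 to 4, and in S/L medium Ndufa4l2 goes up while the marker sum goes down from 91.7 to 14.5 CPM.

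The other members were mostly lower at later passages without passing the test. The median change per doubling of passage was −0.08 against 0.01 for all genes, 12 of 86 members had a positive change, and at an unadjusted p under 0.05 5 members were higher and 26 lower (31 of 86), against 27.6% of all genes at that threshold in either direction. Atp5b held 1963, 1946 and 1954 CPM at passages 1, 2 and 4 and 1712, 1484, 1470 and 1418 CPM at passages 6 to 19. Its change was −0.15 ± 0.04 per doubling (adjusted p = 0.0548). The members' share of counts was 1.06% to 1.11% in the early libraries and 0.90% to 0.95% in the later ones, without overlap, while the slope on gene length was 0.36 to 0.44 and 0.44 to 0.58. The Wald test of DESeq2 called 4 rises and 9 falls on the same design. With the passage 0 library added, 60 members fell, which rests on that library. Shares of all genes called by that Wald test or with passage 0 are not given here.

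Of 88 members tested, 33 were lower in established 2MYCP cells than in mPSCs. In this fit of 13 libraries none rose and 33 fell, against 9.53% and 9.88% of 17525 genes, and the median change was −0.97 against 0.03. The size rests on the mPSC library titled as passage 0: without it 4 rose and 17 fell, with a median of −0.36. With the 0 h libraries of the 3 courses in place of the established cells, 1 rose and 7 fell, against 6.83% and 7.10% of all genes. In 6 libraries alone, the 2 other mPSC and the 4 established ones, 5 rose and 31 fell, with a median of −0.36 against 0.04, and 27 of the 33 calls were shared. The shares of all genes called in these 6 libraries and in the fit without passage 0 are not given here, so those counts are not set against all genes. The libraries come from several tables, so group and table cannot be fully told apart. Single established libraries left out gave 7 to 13 falls, and either of the other mPSC libraries left out gave 55 or 60. Ndufv1 held 163, 184 and 229 CPM in mPSCs and 90.3, 85.5, 94.97 and 93.5 CPM in established cells, without overlap, and fell by 1.26 ± 0.22 (adjusted p = 0.0034). Uqcrc2 held 189, 216 and 172 CPM against 125, 117, 125 and 124 CPM and fell by 0.82 ± 0.18 (adjusted p = 0.0105). Atp5b held 2346, 2321 and 2250 CPM against 1712, 1484, 1470 and 1418 CPM, also without overlap, and fell by 0.77 ± 0.19 (adjusted p = 0.0149). Among the larger falls in the fit of 13 libraries were those of Ndufs4, Ndufc1, Atp5e and Atp5s, at −1.86 to −1.95. Cox6b2 went the other way when the passage 0 library was left out: it held 48.5 and 36.2 CPM in those 2 mPSC libraries and 65.1 to 78.7 CPM in established cells, but 289 CPM in the passage 0 library. Its change was −1.05 ± 0.61 in the full fit, which did not pass, and 0.64 in the 6 libraries. Ndufa4l2 held 71.9, 62.0 and 215 CPM in mPSCs and 37.8 to 123 CPM in established cells and did not pass.

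The embryoid body series has libraries that go against their labels. The library labelled TC1 day 3 correlated at 0.990 over 11410 genes with mPSC replicate 1 and held 6162 CPM of the naive markers. The library labelled mTBLC day 3 held 145 CPM of naive and 3037 CPM of trophectoderm markers, and that labelled mTBLC day 8 held 3179 CPM of naive markers. With all 8 libraries no member changed with day, against 0.405% of 15546 genes that rose and 0.18% that fell, and none differed between origins, against 0% and 0%. At an unadjusted p under 0.05 edgeR had 4 members higher and 3 lower with day and none between origins, and DESeq2 called 2 falls with day and none between origins. Without the mTBLC libraries of days 3 and 8, 2 rose and 6 fell with day, against 8.88% and 7.99% of all genes in that fit, and without the TC1 day 3 library as well 1 fell, against 4.07% and 1.85%.

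The muscle copy Cox6a2 reached 1 CPM in 5 of the 104 libraries, and 2 of these were embryoid bodies. It held 0, 0, 0.973 and 3.66 CPM in TC1 bodies at days 3, 8, 10 and 12 and 0, 0, 0 and 1.72 CPM in mTBLC bodies. The 10 heart muscle markers summed to 5.08, 30.9, 525.7 and 880 CPM in the TC1 bodies and 51.9, 5.51, 139 and 314 CPM in the mTBLC bodies, so Cox6a2 was detected in 3 of the 4 libraries with more than 100 CPM of them. Of the 8 libraries Cox8b, also a heart copy, had counts in that of TC1 day 12 alone, at 0.248 CPM. Cox7a1, the remaining muscle copy, had a mean of 3.97 CPM over the 8 libraries. It changed by 0.12 ± 0.71 per doubling of day and did not pass. Over these 8 libraries the members whose log2 level was most like that of Cox6a2 were Ndufa13, Ndufa3 and Ndufab1, with Pearson correlations of 0.70, 0.58 and 0.57, which share libraries and depth and are given as a description. Ndufa4l2 held 76.9 CPM in the library labelled TC1 day 3 and 4.55 to 8.87 CPM in the other TC1 bodies.

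The levels of the alternative copies also differed between groups, which were not compared by a test. Ndufa4l2 was 26.2% to 32.8% of the Ndufa4 pair per kilobase in mPSCs, 16.4% to 40.5% in established 2MYCP cells and 0.92% to 5.12% at passages 1 to 4. In the E3.5 blastocyst both Ndufa4l2 and Cox4i2 had 0 counts, which allows up to 0.209 CPM (3 counts). Cox6b2 was 31.1% to 39.1% of the Cox6b pair per kilobase in established 2MYCP cells, 26.6% to 39.1% in mPSCs and 0.87% in the blastocyst, where Cox6b2 held 1.53 CPM and Cox6b1 184 CPM. Cox4i2 reached 119 CPM in a ZHBTc4 library of 2MYC medium with doxycycline and 40.4 CPM in the other one, and the library next to these was the passage 0 mPSC library with 56.6 CPM. The ICG001 library held 12.5 CPM of Cox6a2 and 12.0 CPM of Cox7b2, the highest values of the series. Slopes on gene length were −1.88 and −1.81 in the 2 ZHBTc4 libraries and −1.42 in the ICG001 library, and their part in these levels was not tested.

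**Figure D5:**
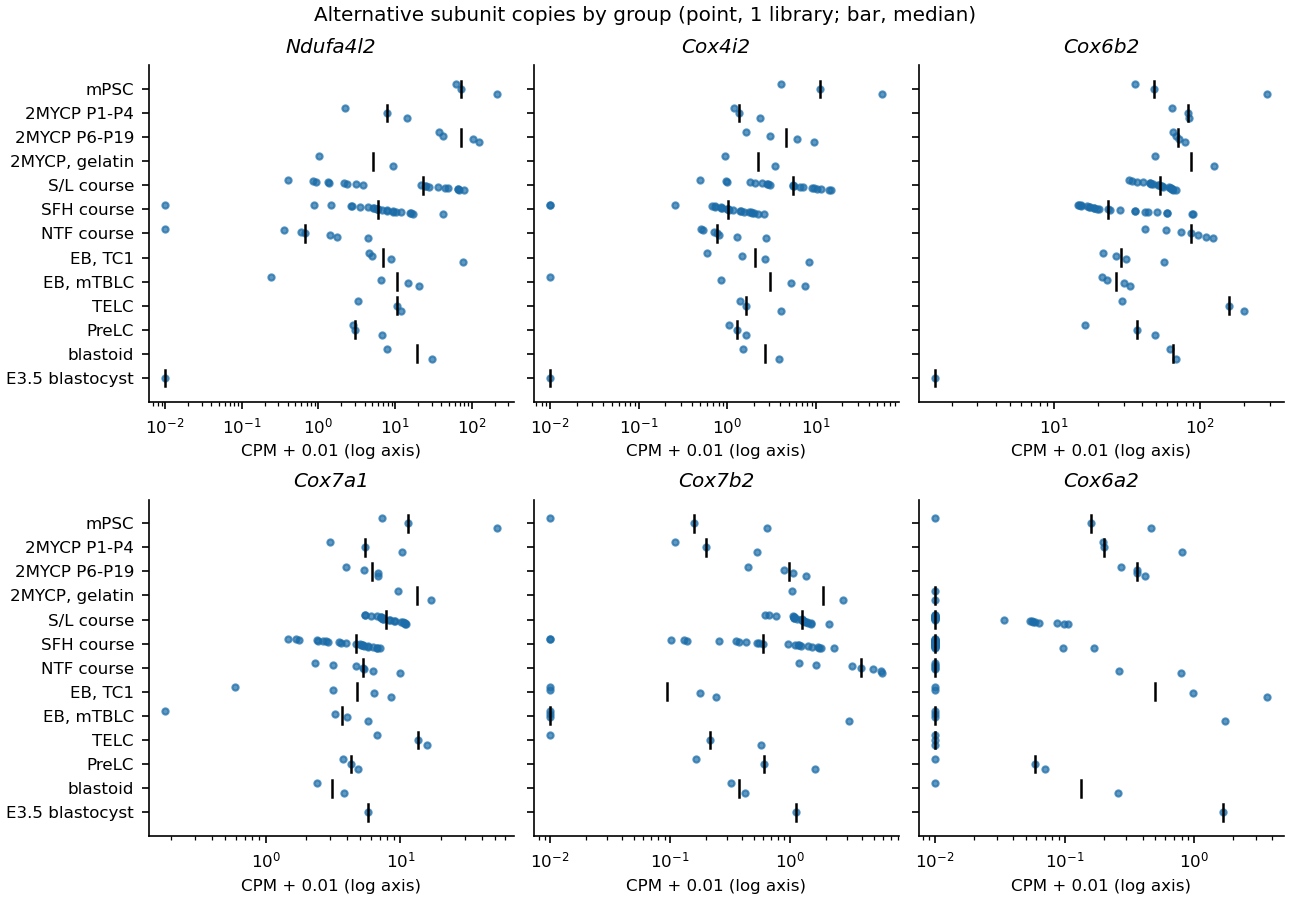
Levels of 6 alternative subunit copies in 13 groups, as CPM plus 0.01 on a log axis, with 1 library per point and the median as a bar. Points at 0.01 are libraries with 0 counts; Cox6b2 is lowest in the E3.5 blastocyst, at 1.53 CPM, and Ndufa4l2 spans from under 1 to 80.3 CPM within the S/L course.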

How the data were processed

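Bulk RNA-seq counts of 104 mouse libraries were read from 18 deposited tables of raw counts per gene symbol. Per the submitters' processing notes, the authors made the counts with Trimmomatic, HISAT2 and featureCounts, with the builds mm10 and hg38 named. Versions, annotation, strand and read pairing are not given in the sources used here, so a gene and an antisense neighbour cannot be told apart. Libraries were made with a VAHTS Universal V8 kit, per the labels. In every one, 26 date-like names were left out, which left 24958 genes. Of counts from 1 to 20, 69.3% to 92.7% per library were even numbers, so halved counts were an alternative.

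CPM were computed from all counts of a library. Genes passing filterByExpr were tested by the quasi-likelihood F test of edgeR 4.0.16 with TMM factors (R 4.3.3) and Benjamini-Hochberg adjustment over all genes tested. Rose, fell and changed mean an adjusted p under 0.05. Standard errors were derived by dividing each fold change, in log2, by the root of its F statistic. Each course was fitted as a natural spline in time, with 3 degrees of freedom or, for NTF, 2, and 1 library per hour, so neighbouring hours stand in for replicates. Passages and days were log2 trends. In the comparison of established cells with mPSCs, 13 libraries of 6 groups shared the spread. Alternatives were DESeq2 1.42.0 (size factors or Wald test), no filter, halved counts, removal of the length trend, other curves and leaving out each library. For the interaction, leaving out covered the 29 libraries up to 20 h or from 60 h. The fits were tested on simulated data. Lengths are summed exons from GENCODE mouse release 21, held for 98.2% of genes. Levels per kilobase use the principal transcript.

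Members, lists and rules were chosen with earlier results of these data known. Genes named by rule are the alternative copies, a set of core subunits and, for each complex, the largest called change in each direction at a mean of at least 5 CPM. Of 30 genes the rule selects in the S/L comparison 15 were called. Other members named were chosen after their values were seen. The hours 0 to 20 and 72 onward, used for early and late ranges, were also chosen after seeing the data, as were the contrasts at 48 h, the fit of 6 libraries and the reduced embryoid body fits.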

Additional observations from a re-analysis of the deposited data

Results flagged for a closer look

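Ndufa4l2 was an outlier in the TC1 embryoid bodies, where the library labelled day 3 held 76.9 CPM and the other 3 held 4.55 to 8.87 CPM. Atp5g1 was an outlier in the mTBLC embryoid bodies, with 85.1 CPM in the library labelled day 8 and 40.3 to 45.4 CPM in the others. Both libraries are among those that go against their labels by their marker genes. Atp5g1 was also an outlier in established 2MYCP cells, with 77.4 CPM at passage 19 and 86.4 to 88.0 CPM at passages 6, 8 and 14. By chance, about 1 in 20 groups of like samples would hold a sample this far from the others, and 30 groups of values were examined. The groups flagged here hold different days or passages and not like samples, so that rate does not apply to them as it stands.

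In all, 14 differences between the SFH and S/L courses passed the interaction test. Over 92 h, SFH minus S/L was −3.85 for Ndufa4l2, −3.72 for Cox4i2, −1.61 for Cox6b2 and −1.12 for Ndufaf5. Over 48 h it was −3.87 for Ndufa4l2, −3.01 for Cox4i2, −1.71 for Cox6b2, −1.18 for Ndufaf5, −0.68 for Atp5h, −0.62 for Uqcrh, −0.52 for Ndufb3 and −0.44 for Atp5o, and it was 0.63 for Atp5g1 and 1.26 for Ndufaf8.

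Alternative copies also stood out in libraries outside the tests. Cox4i2 held 119 CPM in a ZHBTc4 library of 2MYC medium with doxycycline, against at most 56.6 CPM in all libraries outside that group. In the ICG001 library, Cox6a2 held 12.5 CPM, against at most 3.66 CPM elsewhere, and Cox7b2 held 12.0 CPM, against at most 5.89 CPM.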

How the results depend on the processing

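In the SFH course the total of 24 calls moved by less than 1.5 times under every setting tried, but falls went from 6 to 13 with a straight line (17 rises) and to 12 from 48 to 92 h (8 rises). In the S/L course 27 calls became 42 with the length trend removed (36 rises, 6 falls), 43 with a straight line in hours (18 and 25), 47 at 48 h and 17 from 48 to 92 h, and 18 to 30 when single libraries were left out (SFH 22 to 25). The interaction gave 16 calls (12 higher and 4 lower in SFH) in place of 4 with a straight line, 10 at 48 h and 3 to 6 without single libraries. The NTF course gave 7 calls in place of 17 without 4 h and 24 h, 22 rises and no falls with the length trend removed, and 0 to 17 without single libraries. Passages gave 2 calls with DESeq2 size factors, 2 with halved counts, 13 with the Wald test, 60 with passage 0, 0 with passage as a plain number, and 0 to 3 without single libraries, in place of 1. With passage 0, Cox7a1 and Ndufa4l2 turned to −0.75 and −0.22 per doubling. Established cells against mPSCs gave 52 calls with the Wald test, 21 without passage 0, 8 with the 0 h course libraries in place of the established ones, and 7 to 60 without single libraries, in place of 33. In the fit of 6 libraries Cox6b2 turned to 0.64, or 0.69 with the length trend removed, where Cox6b1 turned to 0.51. The embryoid body day trend gave 2 calls with the Wald test, 8 and 1 in the reduced fits, and 0 to 2 without single libraries, and the origin gave 0 throughout. Causes other than fewer libraries or another hour were not tested. Shares of all genes called under these settings are given only where stated above, so the other counts are not results about the members.

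With day as a replicate block, the embryoid body origin also gave 0 calls. Deviations of the same day in both origins correlated at 0.09, 0.36, 0.59 and 0.63 for days 3, 8, 10 and 12, so the numbers were not taken to pair the libraries, and the library of mTBLC day 3 correlated best with TC1 day 12. Removal of the length trend moved the median change of all genes to 0.15 in the S/L and NTF courses and to 0.11 in the SFH course. Genes under 1 CPM (Cox6a2, Cox8b, Cox8c, Cox7b2, Ndufb4c) are limited by depth.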
